A study of Mus musculus with 2 samples.

Results

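Open sites in coding exons are stretches of DNA that DNase I cut more often than their surroundings. They lie in sequence that is translated into protein, away from the promoters of protein-coding genes in the annotation used. They were taken from DNase-seq of mouse gastrocnemius, the main muscle of the calf. Each library came with a longer, permissive peak list and a shorter, strict one of 87558 peaks in replicate 1 and 79562 in replicate 2. A site was shared when strict peaks of both libraries overlapped by at least 1 bp, and overlapping peaks were merged. A shared site was a coding-exon site when its midpoint lay over 1000 bp from every transcription start site (TSS) of a protein-coding gene and inside a coding segment, the translated piece of an exon, of a protein-coding gene. Of 68349 shared sites, 44697 lay over 1000 bp from a protein-coding TSS and are called distal here. Of these, 1260 were coding-exon sites, which is 2.82% (2.67 to 2.98, Wilson 95% interval) of the shared distal sites and 1.84% of all shared sites. They lay in 1097 host genes. The other 43437 shared distal sites comprised 19054 in introns of protein-coding genes, 23030 outside protein-coding genes and 1353 in untranslated or other exons.

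The tissue came from female B6CASTF1/J mice, an F1 cross that carries 1 genome of C57BL/6J and 1 of CAST, at 14 days of age. The study had 1 group of 2 libraries, each made from a pool of 3 females, and no treatment, mutant or second tissue. Sequencing on both a HiSeq and a NovaSeq is stated for replicate 2 and no machine for replicate 1, so sequencing and replicate cannot be told apart. The libraries carry the same donor record, and spread between them may be partly technical. With 1 group there is no contrast between conditions to test. The number of reads behind each library is unknown here. Shares are given with Wilson 95% intervals, which cover counting error over sites only, and each library's value is given where it exists. Whole muscle holds fibres, connective tissue, vessels, nerve and blood cells. All 6 muscle fibre markers examined, among them Acta1, Ckm and Myod1, had a shared promoter site. None of 6 markers of other tissues and cells had one, namely Alb, Pou5f1, Csf1r, Myh6, Krt5 and Cd3e. Of these, Csf1r and Cd3e are genes of blood cells, which whole muscle can hold.

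Coding exons are read by the ribosome as codons, and the same DNA can also hold binding sites for transcription factors. Such a factor displaces or borders nucleosomes, DNase I then cuts the freed DNA, and the bases that the factor covers are spared and appear as a footprint. In muscle the best known factors of this kind are the MyoD family, which with E proteins bind E-boxes with the centre GC, written CAGCTG. CTCF, a zinc finger protein that organises chromosome loops in most cell types, binds a longer GC-rich core.

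The 9 sequences shown here are the 150 bp around the midpoint of sites that recur below. They were read from RefSeq's copy of mm10 (GRCm38), so they are those of C57BL/6J and not of CAST, and each is written 5′ to 3′ on the strand of its gene. The first group holds E-boxes CAGCTG, in capitals. Angptl6 holds the strongest coding-exon site (chr9:20878225-20878374, minus strand), Def6 (chr17:28226175-28226324, plus strand) and Numa1 (chr7:101998655-101998804, plus strand) are among the 5 strongest with this E-box, and Syne1 (chr10:5289395-5289544, minus strand) and Irs1 (chr1:82290175-82290324, minus strand) are the genes with most coding-exon sites.
Angptl6: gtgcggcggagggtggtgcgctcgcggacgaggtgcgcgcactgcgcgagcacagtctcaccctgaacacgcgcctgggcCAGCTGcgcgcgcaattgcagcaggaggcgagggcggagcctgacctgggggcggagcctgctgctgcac
Def6: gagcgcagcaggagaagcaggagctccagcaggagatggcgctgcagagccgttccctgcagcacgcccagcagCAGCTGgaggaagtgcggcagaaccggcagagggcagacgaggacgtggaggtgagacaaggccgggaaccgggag
Numa1: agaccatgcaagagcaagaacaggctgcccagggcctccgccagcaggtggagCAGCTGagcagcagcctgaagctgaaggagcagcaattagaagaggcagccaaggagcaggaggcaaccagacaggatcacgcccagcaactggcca
Syne1: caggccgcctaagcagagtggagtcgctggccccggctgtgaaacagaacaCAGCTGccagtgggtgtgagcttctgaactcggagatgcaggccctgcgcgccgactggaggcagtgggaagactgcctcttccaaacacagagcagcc
Irs1: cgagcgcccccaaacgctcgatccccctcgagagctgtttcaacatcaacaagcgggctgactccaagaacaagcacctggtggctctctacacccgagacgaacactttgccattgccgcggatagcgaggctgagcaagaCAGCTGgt

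The second group holds CTCF cores, in capitals. Tpbgl (chr7:99625885-99626034, minus strand) and Synpo2l (chr14:20661085-20661234, minus strand) are the strongest of these sites, Utrn (chr10:12690735-12690884, minus strand) is a gene of the muscle membrane, and Pgls (chr8:71596025-71596174, plus strand) holds a CTCF core followed by an E-box CAGCTG, both in capitals.
Tpbgl: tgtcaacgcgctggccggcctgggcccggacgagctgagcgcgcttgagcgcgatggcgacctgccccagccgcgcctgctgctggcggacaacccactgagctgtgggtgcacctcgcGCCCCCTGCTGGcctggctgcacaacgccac
Synpo2l: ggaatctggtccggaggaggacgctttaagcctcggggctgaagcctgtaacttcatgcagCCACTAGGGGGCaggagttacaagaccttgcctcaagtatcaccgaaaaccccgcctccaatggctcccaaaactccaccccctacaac
Utrn: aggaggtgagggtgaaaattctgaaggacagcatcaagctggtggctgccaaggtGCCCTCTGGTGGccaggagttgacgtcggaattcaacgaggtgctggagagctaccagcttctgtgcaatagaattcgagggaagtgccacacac
Pgls: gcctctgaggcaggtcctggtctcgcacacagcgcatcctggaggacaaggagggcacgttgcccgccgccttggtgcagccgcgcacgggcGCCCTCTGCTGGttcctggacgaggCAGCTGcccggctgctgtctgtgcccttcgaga

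The strongest coding-exon sites lay in genes of many kinds. Levels are the signal that the authors deposited for each peak, in units of unstated scaling. Over the 1260 sites it ran from 0.134 to 30.3 with a median of 1.60 in replicate 1, and from 0.146 to 24.6 with a median of 1.48 in replicate 2. The site in the first coding segment of Angptl6, which encodes a secreted angiopoietin-like protein, stood far above the rest at 30.3 in replicate 1 and 24.6 in replicate 2. It was 360 bp wide (chr9:20878121-20878480), lay 1427 bp from the nearest protein-coding TSS of the annotation used and 238 bp from a TSS of the RefSeq annotation, and Angptl6 had no shared promoter site.

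The next strongest was in coding segment 6 of 23 of Inpp5b, an inositol phosphatase gene, at 16.3 in replicate 1 and 12.96 in replicate 2. It lay 9642 bp from the nearest protein-coding TSS but 166 bp from a TSS of an annotated gene that is not protein-coding. Clec11a, which encodes a secreted growth factor, held a site of 16.2 and 11.7 in its last coding segment, against 1.14 and 1.18 at its promoter. Rasip1, a regulator of endothelial junctions, held 1 of 15.1 and 11.8 in its last coding segment, 1 of 9.59 and 8.24 in segment 2 of 11 and a weaker 1 of 1.48 and 1.17 in segment 4. The site in its last segment lay 85 bp from a TSS that the rule did not use. Crlf2, a cytokine receptor subunit gene, and Rsad1 followed with 14.4 and 11.7, and 13.3 and 12.3. Zfp771, Apold1, Ccdc194, Tpbgl and Def6 completed the 12 strongest together with Spi1, with 11.98 to 13.98 in replicate 1 and 10.9 to 11.5 in replicate 2. Among these, the Tpbgl site lay 24 bp and the Apold1 site 65 bp from a TSS that the rule did not use, in RefSeq for Apold1.

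**Figure D1:**
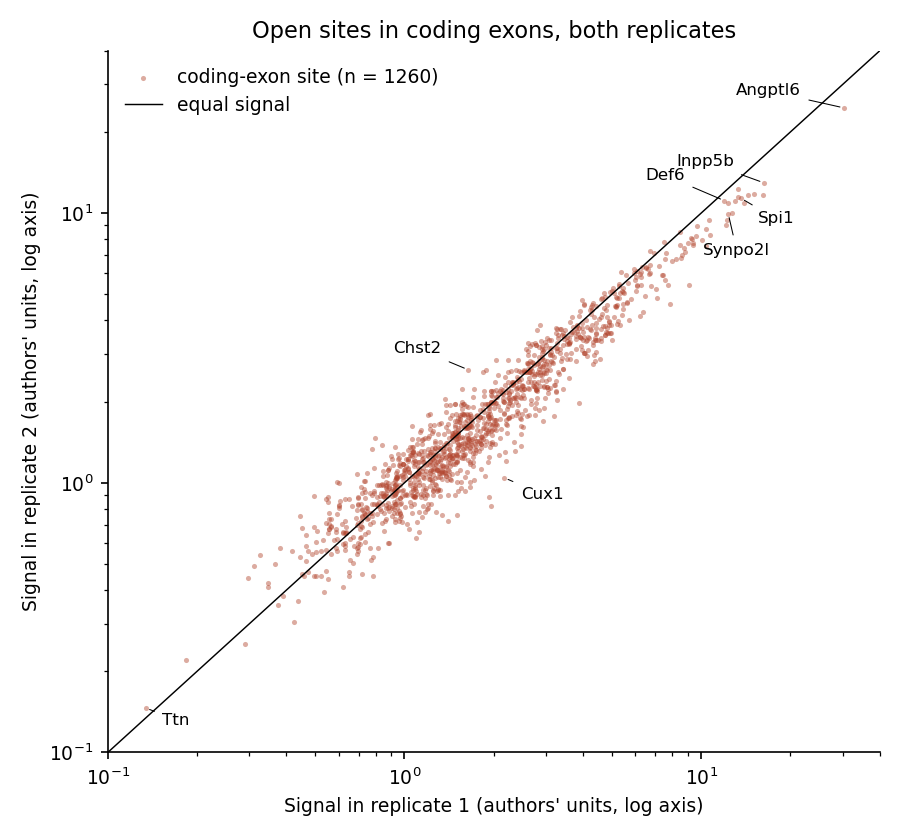
Signal of each of the 1260 coding-exon sites in replicate 2 against replicate 1, in the authors' units on log axes, with the line of equal signal. Angptl6 stands apart at the top (30.3 and 24.6) and a Ttn site is lowest (0.134 and 0.146).

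Genes of blood cells were among the hosts of the strong sites. Spi1 encodes PU.1, a factor of myeloid and B cells, and its last coding segment held a site of 13.6 and 11.4, against 1.82 and 1.69 at its promoter. Klf1, an activator of globin genes in red cell precursors, held a site of 9.66 and 8.99 in segment 2 of 3 and had no shared promoter site. In a library of whole tissue, a site open in few cells and a site open part of the time in many cells cannot be told apart, and which cells were open was not tested. Among the 20 blood cell genes listed, 3 (15%, Klf1, Spi1 and Tal1) hosted a coding-exon site, against a background of 5.00% of the 21938 protein-coding genes.

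Coding sequence held more open sites per base than other distal DNA, but not when DNA of the same base composition was compared. There were 49.2 coding-exon sites per Mb of distal coding sequence, against 17.2 per Mb in all other distal DNA, a ratio of 2.86. Introns had 21.4 per Mb, untranslated and other exons 30.5 and DNA outside protein-coding genes 14.5. Distal coding sequence made up 25.6 Mb. When the whole site had to be coding, 565 sites were left and the ratio was 1.26. Many coding segments are shorter than a site.

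Density fell with distance from the TSS in coding and other DNA. Coding sequence had 84.7 sites per Mb from over 1000 to 2000 bp, 52.6 from over 2000 to 5000 bp, 44.6 from over 5000 to 10000 bp, 37.9 from over 10000 to 50000 bp and 28.3 beyond. The other distal DNA had 39.95, 28.8, 25.9, 23.6 and 9.26 in the same bands, so coding sequence was higher in each of the 5. With other DNA weighted to the distances of coding sequence, the ratio was 1.84.

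GC content, the share of bases that are G or C, turned the order around. Where 60 to 70% of the 150 bp around a base was GC, coding sequence had 182 sites per Mb and other distal DNA 309. From 50 to 60% the values were 45.9 and 71.6 per Mb, from 40 to 50% they were 7.61 and 7.93, and at 70% or more they were 838 and 845. Below 40% there was no coding-exon site in 3.41 Mb, and a count of 0 allows up to 0.879 per Mb, so a difference from the 0.255 per Mb of other distal DNA was not detectable there. Weighted to the GC of coding sequence in steps of 5%, other distal DNA would hold 2160 sites in the same number of bases, and the 1260 seen are 0.583 of that. With GC and distance matched together the ratio was 0.468. These weighted ratios, like that by distance, were chosen after seeing the data.

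**Figure D2:**
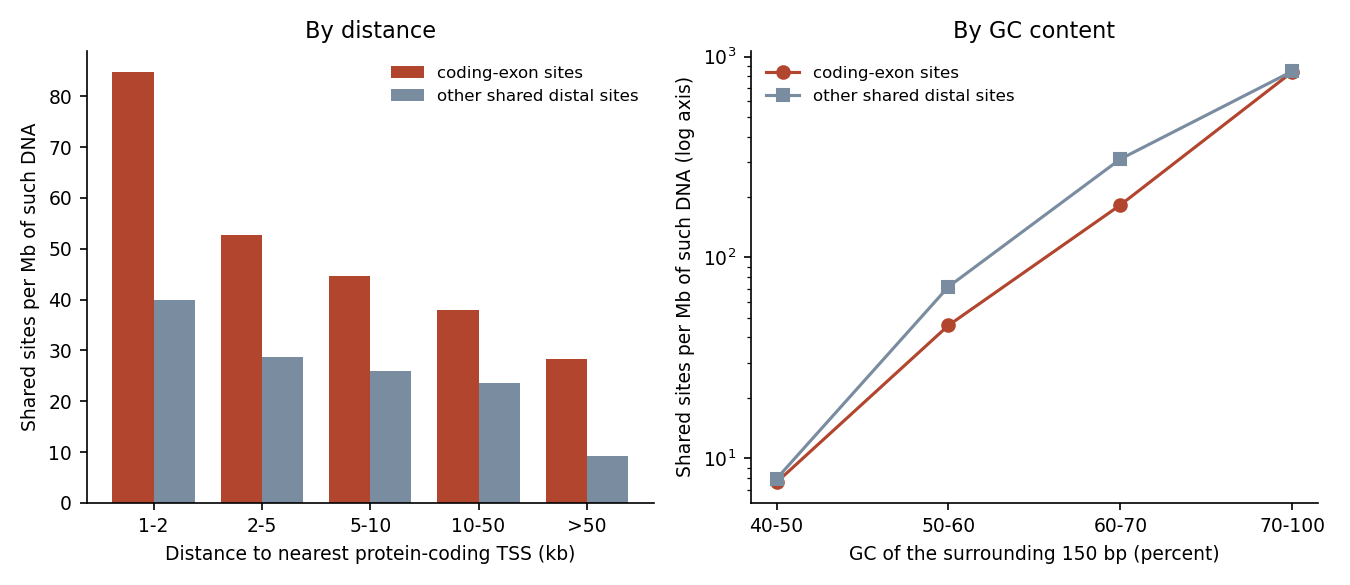
Shared sites per Mb of distal DNA for coding-exon sites and the other shared distal sites, by distance to the nearest protein-coding TSS (left, linear axis) and by GC content of the surrounding 150 bp (right, log axis, from 40% up since a log axis shows no 0). Coding sequence is higher in all 5 distance bands (84.7 against 39.95 nearest the TSS) and lower at 50 to 60% GC (45.9 against 71.6) and 60 to 70% GC (182 against 309).

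Coding-exon sites were closer to promoters and more GC-rich than the other shared distal sites. Their median distance to a protein-coding TSS was 4681.5 bp, against 20537 bp, and 318 (25.2%) lay within 2000 bp, against 6.91% of the others. Just inside the limit were the sites in Ddit4 at 1004 bp (4.67 in replicate 1 and 3.82 in replicate 2), Rasl10a at 1004 bp (1.22 and 1.58) and Gpr149 at 1005 bp (0.346 and 0.412). Just outside were sites in Mroh6 (1.28 and 1.19) and Tril (1.05 and 0.984) at 1000 bp and in Crct1 at 999 bp (1.18 and 0.924). Another 1782 shared sites with a coding midpoint lay within 1000 bp and are not members. Of the members, 142 (11.3%) lay within 1000 bp of a start site that the rule did not use. Such a site came from a gene of the same annotation that is not protein-coding, or from RefSeq. The 142 members had median signals of 1.98 and 1.78 in replicates 1 and 2, against 1.57 and 1.46 for the other 1118.

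The median GC content was 60.5% in coding-exon sites, 54.0% in the other shared distal sites and 49.3% in 137371 closed coding windows, which are 150 bp around the middle of distal coding segments with no peak in the permissive list of either library. CpG dinucleotides, which are the targets of DNA methylation and are rare in most of the genome, were commoner in coding-exon sites. Their observed count over that expected from base composition had a median of 0.464 in coding-exon sites, 0.249 in the other shared distal sites and 0.331 in closed coding windows. It exceeded 0.6 in 437 coding-exon sites (34.7%, 32.1 to 37.4), against 8.08% of the others and 8.83% of all shared distal sites. A single coding-exon site had over 50% of its bases in repeats (0.0794%), against 1.91% of the other sites and 1.86% of all shared distal sites.

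Within the coding sequence, open sites were spread unevenly over first, internal, last and sole segments. The segment is counted along the translated part of the transcript. Internal segments held 660 sites (52.4%, 49.6 to 55.1) but 72.2% of distal coding bases. Last segments held 380 (30.2%) with 18.6% of the bases, first segments 100 (7.94%) with 4.03%, and genes with a sole coding segment 120 (9.52%) with 5.16%. In sites per Mb this was 36.2 in internal, 80.8 in last, 98.3 in first and 91.9 in sole segments. GC differed in the same direction, with a median of 58.0% in internal sites, 63.1% in last, 64.5% in first and 65.0% in sole segments. The share in internal segments also moved with the distance limit, to 44.5% over 500 bp and 60.8% over 2500 bp from a TSS. The part of GC and of distance in the difference was not tested.

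Last segments also had the highest median signal, 1.73 in replicate 1 and 1.65 in replicate 2. Internal segments had 1.58 and 1.42, sole segments 1.46 and 1.36 and first segments 1.41 and 1.29. The order was the same in both libraries. Among the 660 internal sites, 194 lay inside their segment, 146 reached past its 5′ edge only, 157 past its 3′ edge only and 163 past both. The median site was 93.4% coding, and at 1167 sites (92.6%) the midpoint was coding in every coding transcript of the host that spans it.

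**Figure D3:**
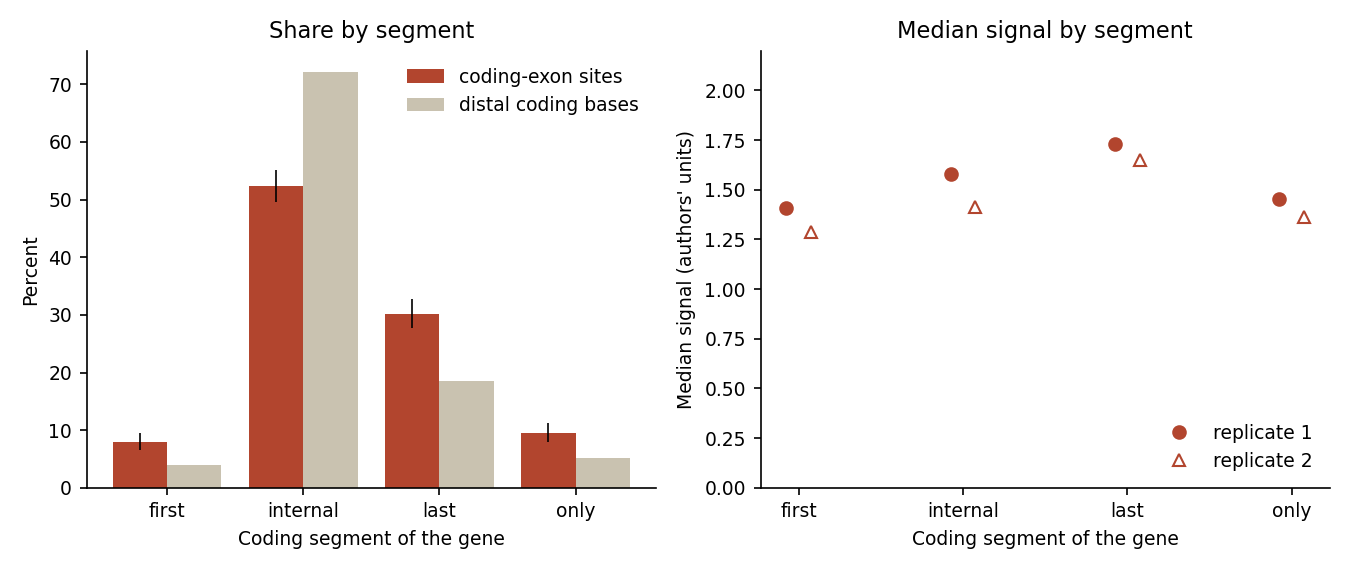
Share of the 1260 coding-exon sites and of distal coding bases by segment of the coding sequence (left, bars with Wilson 95% intervals on the sites), and the median signal of the sites in each replicate (right, authors' units). Internal segments hold 52.4% of sites with 72.2% of bases, and last segments have the highest median signal (1.73 and 1.65).

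The signal of coding-exon sites differed little from that of the other shared distal sites. The medians were 1.60 against 1.63 in replicate 1 and 1.48 against 1.46 in replicate 2, a log2 difference of -0.03 and 0.02, which changes sign between libraries. These sites were called in both libraries. With all strict peaks of 1 library the log2 difference was -0.0889 in replicate 1 and -0.116 in replicate 2. It was -0.0665 with permissive lists, 0.0528 with the stronger 50% of peaks and 0.0312 with a 50% reciprocal overlap. Signal exceeded 5 in both libraries at 81 coding-exon sites (6.43%, 5.20 to 7.92), against 5.61% of the others and 5.63% of all shared distal sites. Within each of 4 GC classes the median was lower in coding-exon sites. At 60 to 70% GC the median of the mean signal was 1.77 in coding-exon sites and 2.27 in the others, and at 70% or more it was 1.67 and 3.05. At 50 to 60% it was 1.42 and 1.57, and below 50% it was 1.15 and 1.21.

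The E-box CAGCTG was the commonest motif of those searched. Its letters were found in the 150 bp around the midpoint of 404 coding-exon sites (32.1%, 29.5 to 34.7), against 25.2% (24.8 to 25.6) of the other shared distal sites and 25.4% of all shared distal sites. Closed coding windows held it at 11.7%. The share was higher than in the other sites in every GC class, with 23.1% against 15.9% below 50% GC, 35.4% against 27.8% from 50 to 60%, 33.5% against 28.8% from 60 to 70% and 21.02% against 13.8% from 70%. In closed coding windows of the same classes it was 7.677%, 15.01%, 21.43% and 14.42%. Shares in closed DNA outside coding sequence are not given, so coding-exon and other sites are compared without the background of the latter. The lowest and highest classes held the fewest coding-exon sites. Intervals by class are not given, so the difference within a single class is a description only. Sites with and without CAGCTG differed little in signal, with medians of 1.69 and 1.55 in replicates 1 and 2 with it, against 1.57 and 1.45 without it. After Angptl6 and Def6 the strongest with the E-box were the sites in Gcc1, a Golgi protein gene, at 10.1 and 7.95, in Fam83a at 9.32 and 8.003 and in Numa1, which encodes a spindle pole protein, at 9.39 and 7.64.

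A match to these 6 letters was common and seldom open. Distal coding sequence held 23915 copies of CAGCTG and 462 of them (1.93%) lay in the window of a coding-exon site. Of 952179 copies in other distal DNA, 1.35% lay in the window of another shared distal site. Coding sequence held more sites per Mb, so more of its bases of any kind lay in such windows. These shares thus have unequal bases and are not ranked, and the same holds for the CTCF cores below. The letters also fall on codons. Of the 462 copies, 256 (55.4%, 50.9 to 59.9) began at the first base of a codon, 120 (26.0%) at the second and 86 (18.6%) at the third. All copies in distal coding sequence gave 53.1%, 30.9% and 16.1%, so the frame of the copies in open sites was close to that of coding sequence at large. The copies shown for Angptl6, Def6 and Numa1 began at the first base of a codon, that for Syne1 at the second and that for Irs1 at the third.

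The related E-box CACCTG, which Snail, ZEB and MyoD family proteins bind, was on either strand in 208 sites (16.5%, 14.6 to 18.7), against 11.96% of the other sites and 15.9% of closed coding windows. For this E-box the open coding sites were thus close to closed coding sequence, unlike for CAGCTG, in shares that are not matched for GC. The site in Myog lay 1121 bp from the TSS in segment 2 of 3, held CACCTG and had 3.00 in replicate 1 and 2.39 in replicate 2.

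CTCF cores were in a smaller share of coding-exon sites than of the other shared distal sites, and the sites that held one were stronger. A core, searched on both strands, was in 63 coding-exon sites (5.00%, 3.93 to 6.35), against 8.95% (8.68 to 9.22) of the other shared distal sites and 8.84% of all shared distal sites. In closed coding windows it was in 0.0561%. Of the 193 cores in distal coding sequence, 53 (27.5%) lay in the window of a coding-exon site, against 32.4% of 12047 cores in other distal DNA. The gap between coding-exon and other sites varied between GC classes, in which few coding-exon sites held a core, and intervals by class are not given. It was 14.1% against 15.4% below 50% GC, 5.71% against 7.97% from 50 to 60%, 3.09% against 4.18% from 60 to 70%, and 4.46% against 2.04% from 70%. The 63 sites had median signals of 2.63 and 2.58 in replicates 1 and 2, against 1.57 and 1.46 in the 1197 sites without a core.

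Tpbgl, whose coding sequence is 1 segment, had the strongest site with a CTCF core, at 12.3 and 10.9, 24 bp from a TSS that the rule did not use. Synpo2l, which encodes a Z-disc protein of heart and skeletal muscle, followed at 12.3 and 9.96, then Rasip1 at 9.59 and 8.24. Pgls, an enzyme of the pentose phosphate pathway, had 7.62 and 7.13, and Gpr153, an orphan receptor, had 6.53 and 6.26. The Pgls site lay 256 bp from a RefSeq TSS. In coding sequence 60.4% of the 53 cores lay on the strand opposite to the gene, against 60.6% of all 193. The core shown for Synpo2l lies on the strand of its gene and those for Tpbgl, Utrn and Pgls on the other.

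Of the other motifs, AP-1, TEAD and RUNX matches were in smaller shares of coding-exon sites than of the other shared distal sites. AP-1 sites were in 2.22% of coding-exon sites, against 6.40% of the other shared distal sites and 1.92% of closed coding windows. The TEAD motif GGAATG gave 6.11%, 10.3% and 8.04%, and the RUNX motif TGTGGT gave 6.75%, 10.9% and 10.8%. The FOXO motif GTAAACA was also in a smaller share, with 0.476%, 1.58% and 1.55%. None of these shares is matched for GC. The SRF CArG box was in 2 coding-exon sites (0.159%, 0.0435 to 0.577), against 0.693% (0.619 to 0.775) of the others and 0.662% of closed coding windows. MEF2, MEF3, NRF1 and ETS matches had intervals that overlapped between coding-exon sites and the other shared distal sites, and no direction was read from them. MEF2 sites were in 3 coding-exon sites (0.238%, 0.0810 to 0.698), against 0.553% (0.487 to 0.627) of the others and 0.105% of closed coding windows. The MEF3 motif TCAGGTTTC was in 0 (at most 0.304%), against 0.334% (0.284 to 0.393) and 0.183%. The NRF1 motif GCATGCGC was in 15 (1.19%, 0.723 to 1.95), against 0.656% (0.584 to 0.737) and 0.186%. The ETS motif CCGGAAGT was in 10 (0.794%, 0.432 to 1.45), against 0.371% (0.318 to 0.432) and 0.375%. A match is only that these letters, on either strand, lay in the window.

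**Figure D4:**
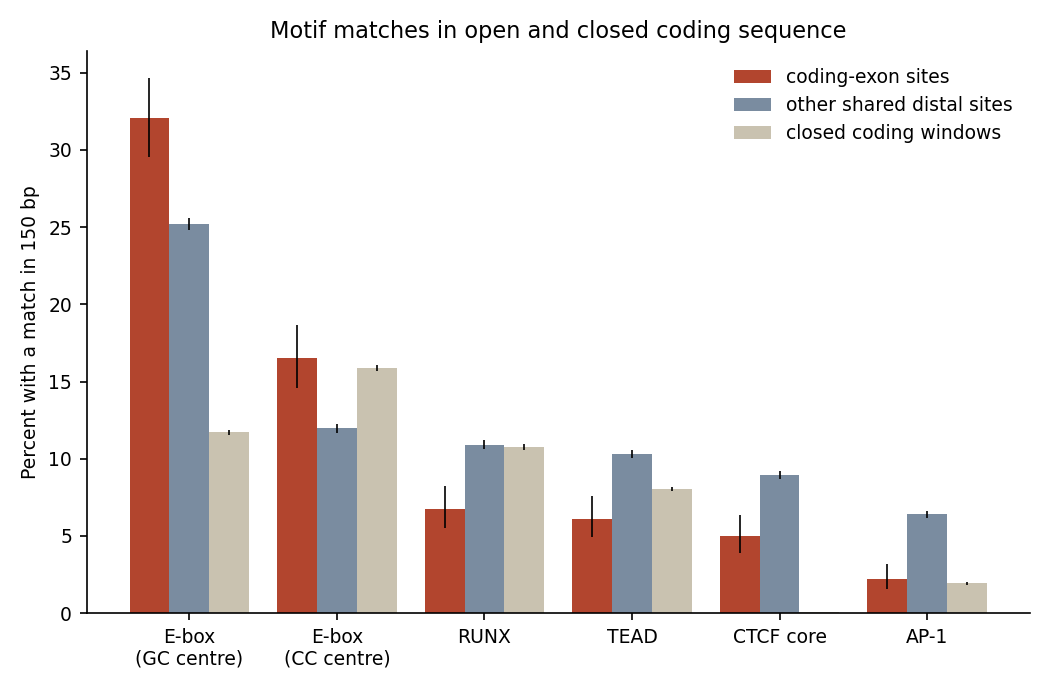
Percent of coding-exon sites, other shared distal sites and closed coding windows with a match to each of 6 motifs in 150 bp (Wilson 95% intervals). The E-box with the centre GC is in 32.1%, 25.2% and 11.7%, and the CTCF core in 5.00%, 8.95% and 0.0561%.

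Footprints were common in coding-exon sites. A footprint of replicate 1 overlapped 94.8% of the sites and a footprint of replicate 2 overlapped 1197 of them. Footprints of both libraries overlapped each other inside 1082 sites (85.9%, 83.8 to 87.7), against 91.2% (91.0 to 91.5) of the other shared distal sites and 91.1% of all shared distal sites. The share was 98.7% against 94.2% below 50% GC, 88.6% against 90.7% from 50 to 60%, 83.9% against 89.2% from 60 to 70% and 77.1% against 86.9% from 70%. The site of Angptl6 overlapped 10 footprints of replicate 1 and 8 of replicate 2, that of Fam84b 11 and 15, and those of Inpp5b and Zfp771 7 and 8 each. The Fam84b site lay 212 bp from a TSS that the rule did not use.

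CTCF cores and E-boxes differed sharply here. Of the 63 CTCF cores in coding-exon sites, 62 (98.4%) were overlapped by a footprint in each library, against 97.2% in the other sites. Of the 501 copies of CAGCTG in the windows, 120 (24.0%, 20.4 to 27.9) were, against 26.3% in the other sites. The copies shown for Angptl6, Numa1 and Syne1 lay under footprints of both libraries, those for Def6, Irs1 and Pgls under none, and the 4 CTCF cores shown under footprints of both.

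Host genes were longer in coding sequence, and more of them had an open promoter. A shared promoter site, with its midpoint within 1000 bp of a TSS of the gene, was present in 872 of 1097 hosts (79.5%, 77.0 to 81.8), against 63.7% of all 21938 protein-coding genes. Promoter signal in those hosts had medians of 6.66 and 6.20 in replicates 1 and 2, against 7.96 and 7.19 over all genes with a shared promoter site. The median coding length was 1968 bp in hosts and 1173 bp in all genes. The share of genes that hosted a site was 1.83% up to 1000 bp of coding sequence, 5.23% to 2000 bp, 8.44% to 4000 bp and 16.0% above. At 133 of the 1011 sites whose host had a shared promoter site (13.2%), the coding-exon site was stronger than the promoter in both libraries.

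Most hosts held 1 site (977 genes), 91 held 2 and 29 held 3 or more. Syne1 and Irs1 held 6 each, and Plec and Ccdc162 held 5 each. In Syne1, which encodes the giant spectrin-like protein nesprin-1 that links nuclei to the cytoskeleton, the 6 sites lay in separate internal segments of 145. They had 6.07, 2.96, 2.68, 2.32, 1.91 and 1.38 in replicate 1 and 6.08, 3.12, 2.37, 2.35, 1.20 and 1.14 in replicate 2. Its strongest site was thus stronger than its promoter, at 3.44 and 3.20. In Irs1, an adaptor of insulin and IGF receptors, the 6 sites were spread over the 3693 bp of its sole coding segment. A pair of them abutted without a gap, since peaks that touch but do not overlap were not merged. The 6 sites had 0.622 to 1.46 in replicate 1 and 0.651 to 1.48 in replicate 2, all below the Irs1 promoter at 6.95 and 8.03. Mroh2a, Syne2, Fzd8 and Tril held 4 each. In Fzd8, a Wnt receptor gene, and Tril, which encodes an accessory of Toll-like receptors, they again lay in a sole coding segment. The Tril sites all lay 177 to 724 bp from a TSS that the rule did not use. Fzd8 had sites 464 and 714 bp from a RefSeq TSS, and this pair also abutted without a gap.

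Structural and regulatory genes of muscle were among the hosts. Of 245 genes in 6 muscle lists, 39 (15.92%, 11.87 to 21.02) hosted one, against 5.00% of all protein-coding genes. The lists of other cell types and tissues together gave 9 of 104 (8.65%, 4.62 to 15.63), an interval that overlaps that of the muscle lists. Blood cell genes alone gave 15%. The lists were written with results of these data known, and genes with longer coding sequence hosted sites more often whatever their kind (5.23% from 1000 to 2000 bp and 8.44% from 2000 to 4000 bp), so the counts are a description without a test. The sarcomere, Z-disc and M-band list had 10 hosts of 60 genes (16.7%, median coding length of the list 1642.5 bp). The membrane scaffold and matrix list had 8 of 30 (26.7%, 2571 bp), the list of excitation-contraction coupling 5 of 36 (13.9%, 1911 bp) and that of myogenic regulators 11 of 49 (22.4%, 1482 bp). Limb position genes had 4 of 34 (11.8%, 1018.5 bp), and genes of muscle energy metabolism had 1 of 36 (2.78%, 1302 bp), the phosphorylase kinase subunit Phkg1. Fibroblast, tendon and vessel genes had 2 of 34 (5.88%), Tnc and the vessel receptor Notch3, whose strongest of 3 sites had 5.28 and 5.36. Nerve genes had 1 of 20 (5.00%), Gfap, and genes of tissues absent from muscle had 3 of 30 (10%), namely Apoa1, Lor and Nanog.

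Among sarcomere genes the sites were mostly modest. Nrap, which encodes an anchor of the ends of myofibrils, held 1 site of 3.92 in replicate 1 and 3.43 in replicate 2. Acta1, the skeletal muscle actin gene, held 3 sites, in segments 1, 3 and 5 of 6, at 1.08, 1.01 and 1.92 in replicate 1 and 1.20, 1.16 and 1.89 in replicate 2, against a promoter of 9.23 and 6.68. Ttn, which encodes the elastic giant titin, held the 3 sites with the lowest mean signal of all 1260. They lay in the neighbouring segments 329, 330 and 331 of 346, at 0.134, 0.184 and 0.290 in replicate 1 and 0.146, 0.219 and 0.253 in replicate 2. Neb, Actn3, Pdlim3, Trim55 and Myot held 1 each, with 0.714 to 1.64 in replicate 1 and 0.691 to 1.41 in replicate 2.

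Genes that tie the fibre to its membrane and matrix held sites of varied strength. Col6a3, a collagen VI chain, had a pair of sites in segment 39 of 43 at 4.27 and 4.44 in replicate 1 and 4.24 and 3.60 in replicate 2. Dysf, a protein of membrane repair, had 4.13 and 3.78. Utrn, the relative of dystrophin, had its CTCF-bearing site at 2.67 and 2.66 and a second at 1.24 and 1.18. Plec, which links filaments to the Z-disc and membrane, had 5 sites from 0.367 to 1.10 in replicate 1 and from 0.306 to 0.718 in replicate 2. They included the widest of all coding-exon sites, 1320 bp in segment 32 of 33, and its neighbour of 1200 bp. This pair abutted without a gap.

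Of the genes of synapse and excitation, Ache, which encodes acetylcholinesterase, had 3.62 and 3.94, Stac3, a partner of the calcium channel, had 4.13 and 3.37, and Cacna1s, the voltage sensor of the triad, had 2.56 and 3.14. Kcna7 had 1.20 and 1.47, and Lrp4, the agrin receptor, had 1.26 and 1.04. Among regulators, Tcf4, an E protein, had 3.19 and 2.94, Sox6 2.24 and 2.84, and Mef2d 2.25 and 1.73 with a CTCF core. Myod1, the master regulator of the muscle lineage, held a site in its last segment of 0.883 and 1.12, below its promoter at 6.54 and 6.10. The Myog site, by contrast, exceeded the promoter of that gene at 1.59 and 1.79. The limb genes Pitx1, Hoxc9, Irx3 and Tbx3 had 0.947 to 1.82 in replicate 1 and 1.05 to 1.67 in replicate 2. Each of these limb sites lay 70 to 865 bp from a TSS that the rule did not use, in RefSeq for Hoxc9. The sites of Cacna1s (792 bp) and Stac3 (814 bp, in RefSeq) also lay within 1000 bp of such a TSS. The sites of Pitx1 abutted each other without a gap.

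**Figure D5:**
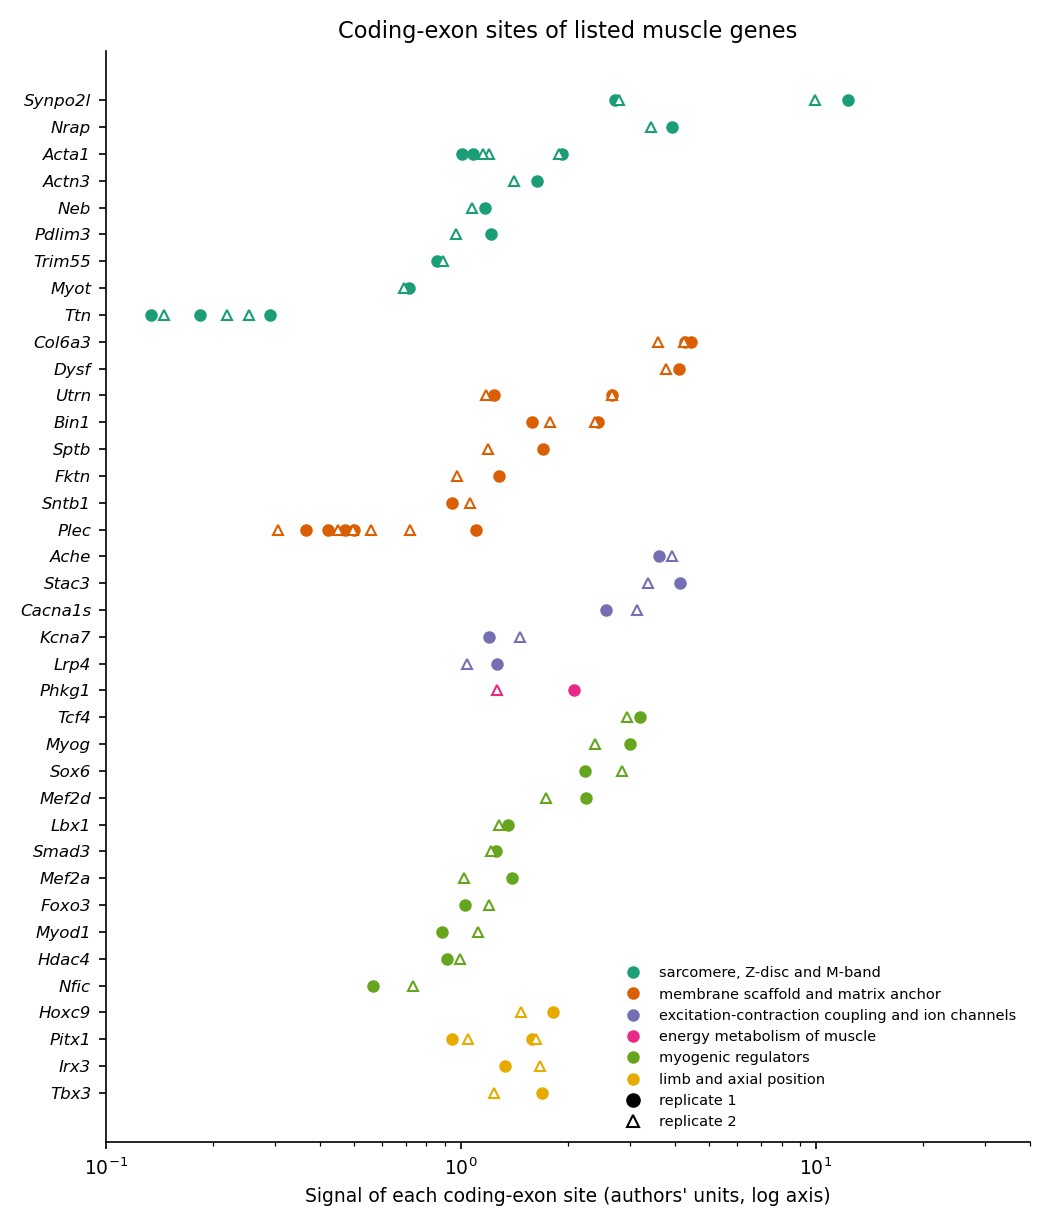
Signal of coding-exon sites in listed muscle genes (authors' units, log axis), with replicate 1 as filled circles and replicate 2 as open triangles, coloured by list. Synpo2l has the strongest site (12.3 and 9.96) and Ttn the weakest (0.134 and 0.146).

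A small set of coding-exon sites was wide, CpG-rich and weak. The class was chosen after seeing the data. The 74 sites of 400 bp or more were 5.87% (4.70 to 7.31) of coding-exon sites, against 1.30% of the other shared distal sites. They had median signals of 1.27 and 1.28 in replicates 1 and 2, against 1.64 and 1.51 in the 1186 narrower ones. Among the other shared distal sites the wide ones were stronger, at 1.87 and 1.58 against 1.63 and 1.46. Wide coding-exon sites had a median GC of 66.7%, and 70.3% (59.1 to 79.5) of them had a CpG ratio above 0.6, against 32.5% of narrow ones. Footprints of both libraries overlapped in 67.6% (56.3 to 77.1) of the wide sites and 87.0% of the narrow ones. They lay a median of 2070 bp from a TSS, against 4930.5 bp, and 34 of the 74 were in a first or sole coding segment. Besides Plec and Irs1, they include sites of Acta1 (617 bp), Nfic (855 bp), Lbx1 (524 bp), Hoxc9 (465 bp) and Foxo3 (442 bp). Of these, the Foxo3 and Hoxc9 sites lay 350 and 865 bp from a RefSeq TSS.

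The libraries ranked the coding-exon sites in nearly the same order. Over the 1260 sites Pearson's r of the log2 signals was 0.961 and Spearman's rho 0.948, as a description across sites of the same pair of libraries, against 0.949 and 0.935 over the other shared distal sites. After centring on the median of all shared sites, replicate 2 over replicate 1 had a median log2 ratio of 0.05 with an SD of 0.29 over coding-exon sites, and -0.01 with an SD of 0.32 over the others. It was 0.13 in first and in sole segments, 0.07 in last and 0.01 in internal ones. All but 2 coding-exon sites were within 2-fold. Among the stronger sites the lowest ratios were in Cux1 (-0.91), Sesn1 (-0.83) and Sec31b (-0.73), and the highest in Chst2 (0.82), Ints10 (0.72) and Ppp1r13l (0.64).

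The share of strict peaks that both libraries held was lower for coding-exon peaks than for other distal peaks. Of 1823 coding-exon peaks in the strict list of replicate 1, 70.8% (68.6 to 72.8) overlapped a strict peak of replicate 2, against 74.9% of other distal peaks. Of 1764 in replicate 2, 73.4% (71.2 to 75.4) overlapped one of replicate 1, against 85.9%. Peaks found in 1 library alone were weak, with median signals of 0.685 in replicate 1 and 0.582 in replicate 2, against 1.57 and 1.47 for those in both. The other library's permissive list held 59.5% of those seen in replicate 1 alone and 40.2% of those seen in replicate 2 alone.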

How the data were processed

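DNase-seq was measured in 2 libraries of mouse gastrocnemius that form 1 group. Each library's peak lists, footprints and per-base false discovery rates were made by the authors from its own alignments on mm10, with replicates not pooled, per the deposited readme files. Aligner and callers were not stated there. The signal per peak (the unit of all levels) is the authors' deposited value, whose scaling is not stated, so the ratio of the replicates was set to a median of 0 (log2) over the shared sites. The deposited q-value of every footprint is 0.01. The number of reads, and so the depth, is unknown, and intervals cover counting error over sites only.

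Strict peaks of both libraries were merged at 1 bp overlap, and a site took the highest signal of its peaks in each library. Peaks that only touched were kept as separate sites. Start sites and coding segments came from GENCODE M21, further start sites and the sequences from RefSeq's GRCm38 (the same coordinates as mm10), repeats from its lower-case bases. Motifs were searched on both strands in 150 bp around the midpoint, and overlapping matches were counted. Python 3.11.15, pandas 2.3.3, numpy 2.4.6, pysam 0.24.0 and matplotlib 3.10.9 were used, and the functions were tested on made-up peaks and sequences. With 1 group of 2 samples no test was run. Named sites are the 12 strongest, those of the 6 genes with most sites, all hosts in the muscle and limb lists with the 3 strongest of other lists, the 5 strongest with each of 2 motifs, the 4 with most footprints, the 3 highest and 3 lowest replicate ratios among sites above the median signal, and 3 sites on each side of the 1000 bp limit. Mroh2a, Syne2, Tal1 and the hosts of the absent-tissue list, named outside that rule, were chosen after their values were seen. A gene of the muscle lists is not reported here by name, in text or plot, and stays in the counts. The members and gene lists were chosen with earlier results of these data known. Alternatives were other peak lists, strengths, overlaps, distances, start sites, coding shares, motif windows, single replicates and weighting by GC and distance.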

Additional observations from a re-analysis of the deposited data

How the results depend on the processing

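No paired analysis was possible because there is only 1 group. The reads behind each library are unknown, peak signal has no stated scale, and 2 pools allow no test of any difference. With permissive peak lists there were 2395 coding-exon sites (3.17% of shared distal sites, density ratio 3.22, log2 signal difference to the other sites -0.0665), of which 3.17% had a CTCF core and 66.9% footprints in both libraries, with a median GC of 59.6% and 85.2% of hosts with an open promoter. With the stronger 50% of peaks there were 574 sites, a log2 difference of 0.0528, CTCF cores in 8.01%, footprints in 97.04%, a GC of 61.7% and open promoters in 72.5% of hosts. A 50% reciprocal overlap gave a log2 difference of 0.0312, footprints in 88.3% and a GC of 60.4%. Over 500 bp from a TSS, the share was 3.54%, the density ratio 3.24, the log2 difference -0.0384, CAGCTG in 28.9%, footprints in 78.4%, GC 61.8%, open promoters 84.6% and internal segments 44.5%. Over 2500 bp, the share was 2.12%, the density ratio 2.56, footprints 87.8%, GC 59.3%, internal segments 60.8% and the median width 189 bp. Start sites of all annotated genes gave a GC of 60.2% and a width of 199 bp, and at least 50% of bases coding gave a GC of 60.6%. Wholly coding sites numbered 565 (1.26% of shared distal sites, density ratio 1.26), with CTCF cores in 3.01%, footprints in 82.5%, a GC of 63.1% and 34.3% in internal segments, a class that leaves out sites wider than their segment by construction. CAGCTG was found in 37.1% of sites in 200 bp and in 39.1% in the whole site, where more bases were searched, and a footprint of either library was in 97.1%. Leaving out the peaks of 1 replicate gave 1736 to 1806 sites, a share of 3.01% to 3.31%, a density ratio of 3.06 to 3.37 and log2 differences of -0.116 to -0.0889. CTCF cores were in 3.74% to 3.99%, open promoters in 82.2% to 82.4% of hosts, and the width was 180 bp both times. Overlapping footprints of both libraries were in 66.9% to 68.7%. That share still required footprints of the library whose peaks were left out. After weighting chosen after seeing the data, the density ratio was 1.84 at equal distance to the TSS, and it turned to 0.583 at equal GC and to 0.468 at both. Except where the construction is named, the cause was not tested. The number of sites was also 1712 over 500 bp from a TSS, 854 over 2500 bp, 1135 with a 50% reciprocal overlap, 1195 with all annotated start sites and 1215 with at least 50% of bases coding. The median log2 ratio of the replicates at coding-exon sites was 0.0739 with permissive peak lists and 0.0411 with the stronger 50% of peaks. With a 50% reciprocal overlap it was 0.0341, against 0.0497 as reported and an SD of 0.29 over sites. All other values not printed here moved by no more than the spread between the libraries or stayed inside the interval.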
